A study of Arabidopsis thaliana with 22 samples.

Results

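The 10 genes described here are 6 that encode enzymes of jasmonate synthesis (LOX2, LOX3, LOX4, AOS, AOC1 and OPR3) and 4 that are read as outputs of jasmonate signalling (VSP1, VSP2, TAT3 and PDF1.2a). They were chosen by name and locus code, with earlier results of these data known. All 10 were found among the 24185 loci of the count table. All 10 were among the 18149 loci tested, although PDF1.2a only just passed the filter on low values, which asked for at least 1 CPM in at least 2 libraries. CPM are counts scaled to the library total, here after scaling by the trimmed mean of M-values (TMM).

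The study sequenced RNA from whole 14-day-old soil-grown seedlings of Arabidopsis thaliana natural accessions, which are inbred wild strains, 3 h after a UV or mock treatment. The lamps gave 4.35 W/m2 at 312 nm at the plant level, without filtering. The 22 libraries carried the accession labels T1080, Mh-0, Lip-0, Got-7, C24 and Ba-1, and 11 were labelled UV and 11 mock. Each labelled accession had 2 UV and 2 mock libraries, except that Got-7 had 1 UV library and T1080 had 1 mock library. The plants carried no transgene or mutation named in the labels, which leave unsaid whether libraries with equal labels are from separate plants, so p-values measure only the spread between these libraries.

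Jasmonates are hormones made from fatty acids of the chloroplast membranes and are best known for wound and herbivore defence in leaves. A lipoxygenase, allene oxide synthase and allene oxide cyclase act in the chloroplast, and OPR3 and the enzymes of beta-oxidation act in the peroxisome. The conjugate of jasmonate with isoleucine brings JAZ repressors to the receptor COI1 for degradation, which frees MYC factors. In Arabidopsis the VSP genes and TAT3 are classical outputs of the MYC branch, and PDF1.2 is the classical output of the branch that runs through ERF1 and ORA59 with ethylene.

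Libraries are called here by the number in their descriptions. Libraries 12 to 22 were compared with libraries 1 to 11 within 6 genotype blocks, and these cut across the labels. A block joins libraries that were alike at loci that are on or off according to genotype, and it was set from the values of these data. The names are labels only. The library-7 block is named after a library. The MAM1-high block is named after a locus that is never off and that overlapped other blocks (182 to 574 CPM in its libraries, against 50.0 to 324 CPM elsewhere). FLC was low in the AOP3-expressing block too, at 3.31 to 6.90 CPM, against 0.160 to 1.94 CPM in the FLC-low block. In the remaining blocks FLC stood at 66.3 CPM or more. The ESP-low block held library 12 against libraries 1 and 3, the GSL-OH-low block held 13 and 14 against 2 and 4, and the MAM1-high block held 15 and 16 against 5 and 6. The library-7 block held 17 and 18 against 7, the FLC-low block held 19 and 20 against 8 and 9, and the AOP3-expressing block held 21 and 22 against 10 and 11. AOP3, a glucosinolate side chain gene, stood at 49.8 to 414 CPM in the AOP3-expressing block and at no more than 0.313 CPM in every other library. Of 56 loci that were either below 0.5 or at least 10 CPM in every library, with both states present, 12 took both states within a block (11 of them only between the sets of a block) and 48 did so within a labelled accession. Libraries 12 to 22 carried the labels Lip-0, Mh-0 and T1080 (6 UV and 5 mock), and libraries 1 to 11 carried Ba-1, C24 and Got-7 (5 UV and 6 mock). Neither set is a treated set by its labels, and a difference between labelled accessions cannot be told apart from anything else that went with the numbering.

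Totals ran from 6402500 to 19546141 counts in libraries 12 to 22 and from 3539510 to 20903894 in libraries 1 to 11, so that a count of 3, taken as the limit that a count of 0 allows, was worth 0.154 to 0.470 CPM and 0.150 to 0.861 CPM in these sets. Such limits cover counting error only. The 4 green tissue markers (RBCS1A, LHCB1.3, RBCS3B and LHCA3) were all called lower in libraries 12 to 22, with summed levels of 21190 to 37060 CPM against 35600 to 46010 CPM in libraries 1 to 11. Of 6 root markers, 2 were tested, NRT2.1 and PYK10, and both were called lower; the 2 summed to 51.7 to 224 CPM in libraries 12 to 22 and to 93.3 to 269 CPM in libraries 1 to 11, nearly all from PYK10. Of 5 flower markers, AG and SEP3 were tested, summed to 0 to 1.48 CPM against 0.648 to 5.22 CPM and were called lower, and AP1, AP3 and PI had 3, 6 and 20 reads in all libraries together. The part of these markers in the results below was not tested. In bulk RNA, fewer cells of a type and less RNA per cell cannot be told apart.

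The sequences in front of 4 of the genes are shown because LOX4 and TAT3 had the highest and LOX2 and AOS the only called negative log2 fold changes among the members. Each is the 250 bases before the annotated gene start in RefSeq's TAIR10.1 assembly, 5′ to 3′ on the gene's strand, and capitals mark the G-box (CACGTG), the T/G-box (AACGTG) and the variant CACATG, all known to be bound by MYC factors, or the GCC-box (GCCGCC), known to be bound by ERF factors, searched on both strands. All sequences, motifs and identities given in this text are those of that assembly. The sequences of the labelled accessions may differ from it and were not read. LOX4 lies at chr1:27308513-27312756 on the plus strand and has 6 exons, and its window is chr1:27308263-27308512. TAT3 lies at chr2:10582074-10585216 on the minus strand (7 exons, window chr2:10585217-10585466). LOX2 lies at chr3:16525245-16529352 on the plus strand (7 exons, window chr3:16524995-16525244), and AOS at chr5:17097564-17099595 on the minus strand (1 exon, window chr5:17099596-17099845).
LOX4: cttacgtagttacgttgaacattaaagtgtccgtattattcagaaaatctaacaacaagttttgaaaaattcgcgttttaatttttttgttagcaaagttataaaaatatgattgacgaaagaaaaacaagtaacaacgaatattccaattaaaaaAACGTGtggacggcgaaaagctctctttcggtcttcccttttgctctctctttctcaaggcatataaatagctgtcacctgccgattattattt
TAT3: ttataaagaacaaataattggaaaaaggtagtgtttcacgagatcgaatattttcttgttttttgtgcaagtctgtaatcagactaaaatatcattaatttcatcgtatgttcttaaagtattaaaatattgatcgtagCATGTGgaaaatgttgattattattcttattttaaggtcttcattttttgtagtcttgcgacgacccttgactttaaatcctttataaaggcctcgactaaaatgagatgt
LOX2: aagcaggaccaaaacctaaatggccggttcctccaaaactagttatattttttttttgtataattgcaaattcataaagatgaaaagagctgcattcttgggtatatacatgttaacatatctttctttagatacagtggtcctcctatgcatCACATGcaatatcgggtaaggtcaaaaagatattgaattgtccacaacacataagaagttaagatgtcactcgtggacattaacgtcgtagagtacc
AOS: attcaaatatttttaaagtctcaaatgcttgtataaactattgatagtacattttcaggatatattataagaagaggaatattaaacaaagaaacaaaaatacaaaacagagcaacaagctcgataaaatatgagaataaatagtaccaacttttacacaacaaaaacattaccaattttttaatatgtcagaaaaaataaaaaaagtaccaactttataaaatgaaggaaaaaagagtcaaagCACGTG
The LOX4 window held 1 T/G-box, 94 bases before the start, the TAT3 and LOX2 windows each held 1 CACATG variant (111 and 97 bases before), and the AOS window ended in a G-box 6 bases before the start. None of the marked motifs overlapped another. Of 27443 promoter windows of the same length, 6.49% held CACGTG, 7.54% AACGTG, 11.1% CACATG and 1.87% GCCGCC. Among the other members, LOX3 held a CACATG, AOC1 and VSP1 each an AACGTG, and OPR3 and VSP2 none of these letters in this window. PDF1.2a held GCCGCC 222 bases before the start, next to a CACATG at 216, and an AACGTG at 44.

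Libraries 12 to 22 had higher LOX3, LOX4, AOC1, OPR3 and TAT3 and lower LOX2 and AOS than libraries 1 to 11, with genotype block as a covariate (edgeR's quasi-likelihood test, Benjamini-Hochberg adjusted p under 0.05). Log2 fold changes are those of libraries 12 to 22 over libraries 1 to 11. VSP1, VSP2 and PDF1.2a did not pass. The 7 of 10 members called stood against 76.2% of all loci tested, the 5 called higher against 37.7% and the 2 called lower against 38.5%, so that the share of members called was near the background. By size, 0.97% of loci had a log2 fold change at least as high as TAT3. The share was 1.87% for LOX4, 5.47% for OPR3, 8.85% for LOX3 and 11.5% for AOC1. At the other end, 0.474% of loci were at least as low as PDF1.2a, which was near the floor, and 2.42% as LOX2. This share was 13.6% for AOS, 22.9% for VSP1 and 35.4% for VSP2. The members were chosen with earlier results of these data known, so these ranks describe them and test nothing. The median log2 fold change was 0.60 over the 10 members and -0.01 over all loci. In 3 members, LOX4, OPR3 and TAT3, every one of libraries 12 to 22 stood above every one of libraries 1 to 11, which held for 13.4% of loci. In 4 members, LOX3 being the other, this held within each of the 6 blocks, against 23.3% of loci, and no member lay below in all 6 (23.1% of loci).

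**Figure D1:**
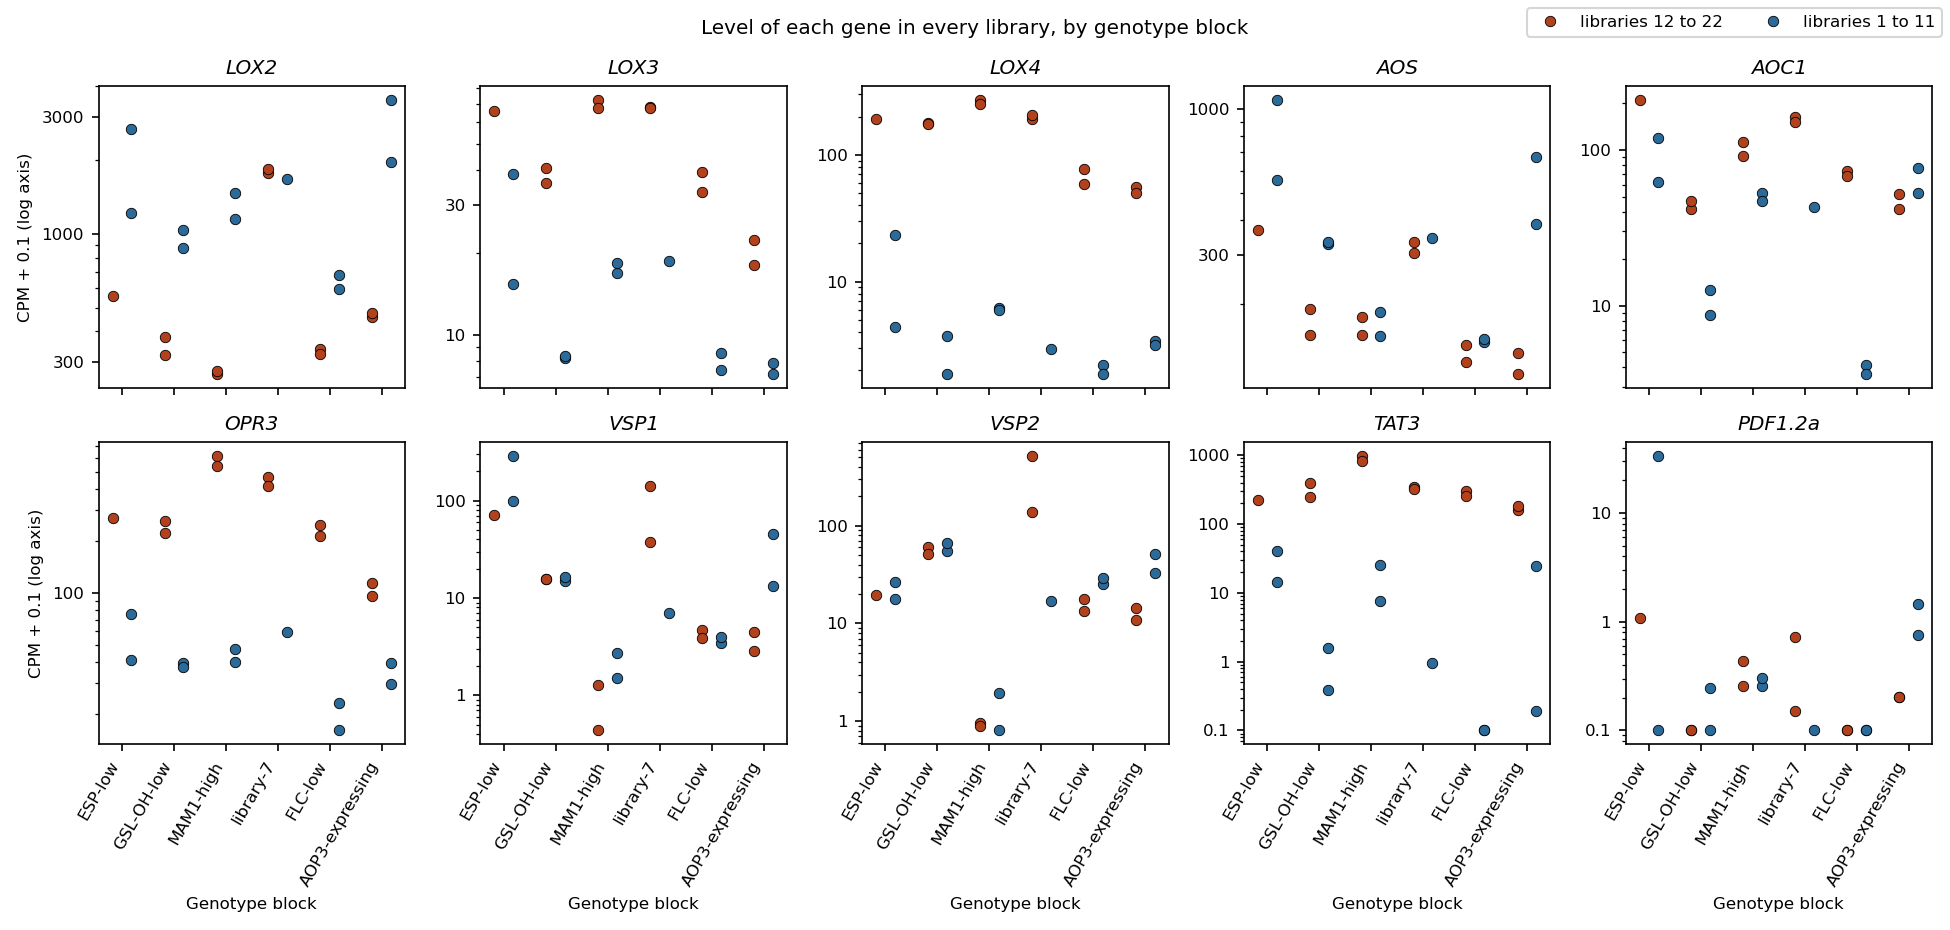
TMM-scaled CPM plus 0.1 on a log axis for the 10 genes in each of the 22 libraries, by genotype block, with libraries 12 to 22 in red on the left and libraries 1 to 11 in blue on the right. LOX4, OPR3 and TAT3 are higher in red in all 6 blocks with no overlap between the sets, and VSP1 and VSP2 overlap widely between the sets.

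LOX2 (AT3G45140), the chloroplast 13-lipoxygenase that makes much of the jasmonate of wounded leaves, was the most abundant member in libraries 1 to 11 per length of transcript. It ran from 267 to 1842 CPM (median 378) in libraries 12 to 22 and from 593 to 3531 CPM (median 1219) in libraries 1 to 11. The sets overlapped only through libraries 17 and 18 (1765 and 1842 CPM, labelled Mh-0 mock 2 and Mh-0 UV 1), since the others of libraries 12 to 22 lay at 556 CPM or below. The log2 fold change was -1.61 ± 0.256 (SE, adjusted p = 2.66e-05, edgeR). Libraries 12 to 22 lay below their block partners in 5 of 6 blocks, and the library-7 block gave 0.10 ± 0.405. The ESP-low value of -1.81 was -1.12 without library 3. The call in the FLC-low block (-0.94, adjusted p = 0.0376) was lost without library 2, 4, 6, 8, 9, 15, 16, 19 or 20, at -0.80 to -0.99 and adjusted p of 0.0501 to 0.157.

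LOX3 (AT1G17420) and LOX4 (AT1G72520), 13-lipoxygenases that act redundantly in anther development and stress jasmonate, went the other way. LOX3 ran from 17.9 to 72.5 CPM (median 40.8) in libraries 12 to 22 and from 7.08 to 38.7 CPM (median 8.45) in libraries 1 to 11. Only library 3, labelled Ba-1 UV 1, exceeded 18.6 CPM among libraries 1 to 11. It lay above libraries 14, 20, 21 and 22 (35.9, 33.2, 22.2 and 17.9 CPM). Libraries 6 and 7 (18.2 and 18.6 CPM) lay above library 22 too. LOX3 thus overlapped between the sets, although libraries 12 to 22 were above in every block. Its log2 fold change was 1.85 ± 0.135 (adjusted p = 3e-10, edgeR), with up to 2.22 in the single blocks. The ESP-low value was the smallest with all libraries and became 2.13 without library 3. All 6 were called, though that in the AOP3-expressing block was lost without library 10 (1.38, adjusted p = 0.0595).

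LOX4 ran from 49.5 to 272 CPM (median 178) in libraries 12 to 22 and from 1.76 to 23.2 CPM (median 3.32) in libraries 1 to 11. The highest of libraries 1 to 11 was again library 3, and without it they reached only 6.06 CPM, in library 5 (C24 mock 1). On the log2 scale the difference was 5.06 ± 0.3, or 33.4-fold (adjusted p = 1.19e-10, edgeR), and it was called in all 6 blocks, from 3.47 in the ESP-low block, which holds library 3, to 6.13 in the library-7 block. Without library 3 the ESP-low value was 5.48, and without library 2 the GSL-OH-low value was 6.66, against 6.04 with it. The coding sequences of LOX3 and LOX4 were 80.6% identical with no identical run above 24 bases.

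AOS (AT5G42650), allene oxide synthase, acts on the lipoxygenase product. It ran from 112 to 369 CPM (median 155) in libraries 12 to 22 and from 146 to 1079.6 CPM (median 334) in libraries 1 to 11, with wide overlap. Libraries 3 and 11 were the highest (1079.6 and 671 CPM) and library 1 came next (556 CPM). AOS gave a log2 fold change of -0.76 ± 0.23 (adjusted p = 0.00712, edgeR). Calls were made in 3 blocks, AOP3-expressing (-2.10 ± 0.318), ESP-low (-1.16 ± 0.388) and GSL-OH-low (-0.93 ± 0.309), while MAM1-high, library-7 and FLC-low gave -0.02, -0.11 and -0.15. Without library 3 the ESP-low value was -0.58 (adjusted p = 0.194). The GSL-OH-low call was lost without library 2, 4 or 13 (-0.79 to -0.91, adjusted p of 0.0783 to 0.131).

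AOC1 (AT3G25760) is 1 of 4 allene oxide cyclases, which fix the stereochemistry of the jasmonate precursor. It ran from 41.4 to 211 CPM (median 73.4) in libraries 12 to 22 and from 3.52 to 120 CPM (median 46.7) in libraries 1 to 11. The 4 libraries below 13 CPM were 2, 4, 8 and 9, of the GSL-OH-low and FLC-low blocks. AOC1 gave 1.45 ± 0.366 on the log2 scale (adjusted p = 0.00186, edgeR). It was higher in 5 blocks, most in FLC-low (4.22 ± 0.429), and in the AOP3-expressing block libraries 21 and 22 (51.8 and 41.4 CPM) lay below libraries 10 and 11 (52.5 and 76.9 CPM) without passing the test (-0.43 ± 0.281, adjusted p = 0.228). The ESP-low value of 1.13 was 1.78 without library 3. The MAM1-high call (1.04) was lost without library 6 (0.93, adjusted p = 0.0508). AOC1 is 90.3% identical to its neighbour AOC2 in coding sequence, with an identical run of 47 bases, and it is 82.7% identical to AOC3, with a longer identical run of 73 bases. Reads may have been split among the copies, and the part of either copy in the AOC1 values was not tested. AOC3 was called higher, as given with the other synthesis enzymes. AOC2 was called lower, at 75.2 to 202 CPM in libraries 12 to 22 and 89.5 to 482 CPM in libraries 1 to 11 (log2 fold change -0.92 ± 0.257, adjusted p = 0.00393, edgeR).

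OPR3 (AT2G06050) reduces 12-oxo-phytodienoic acid in the peroxisome. It ran from 95.7 to 617 CPM (median 260) in libraries 12 to 22 and from 16 to 75 CPM (median 39.5) in libraries 1 to 11. The sets did not overlap, and they came closest between library 22 (labelled T1080 UV 2) and library 3. The difference was 2.81 ± 0.226 on the log2 scale, or 7.01-fold (adjusted p = 6.47e-09, edgeR), and all 6 blocks were called, from 1.64 in AOP3-expressing to 3.74 in MAM1-high. Without library 3 the ESP-low value of 2.15 was 2.74. Per kilobase of its longest transcript, OPR3 had the highest median of the members in libraries 12 to 22 (166 CPM per kb, against 25.3 in libraries 1 to 11), and LOX2 in libraries 1 to 11 (119 CPM per kb in libraries 12 to 22, against 383).

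**Figure D2:**
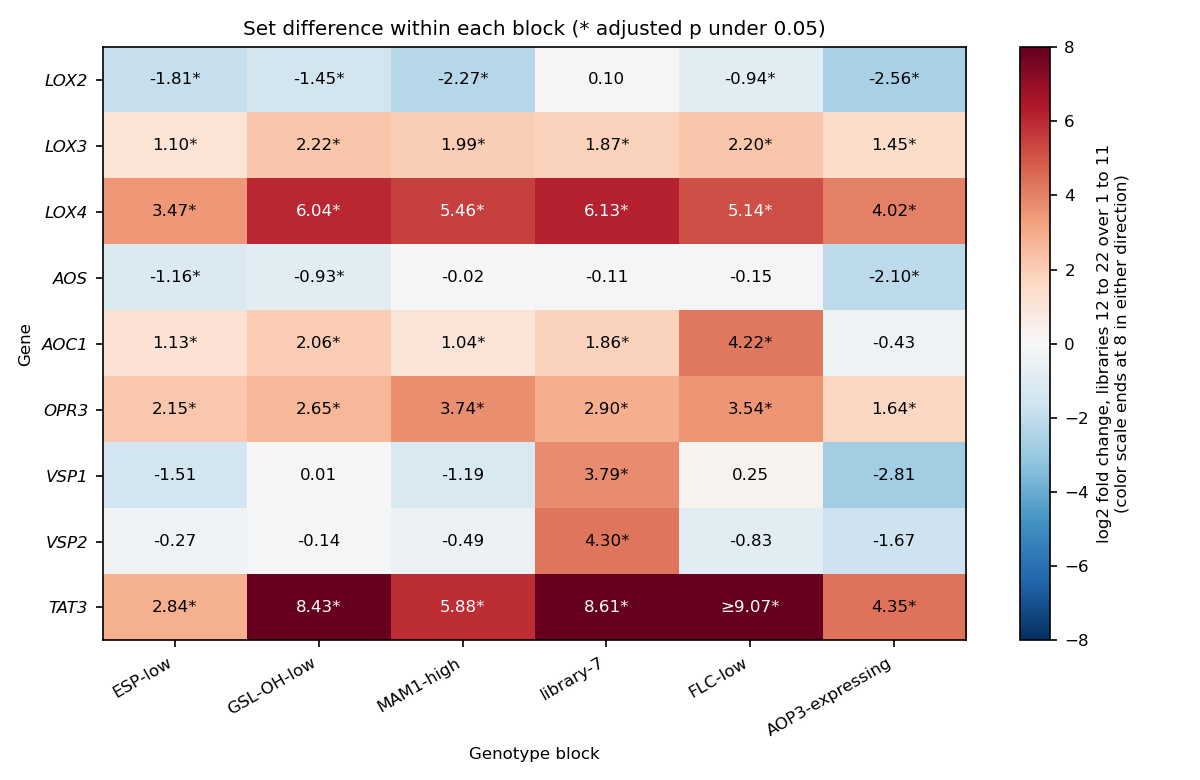
Log2 fold change of libraries 12 to 22 over libraries 1 to 11 for 9 genes (rows) in the 6 genotype blocks (columns), with an asterisk at adjusted p under 0.05 (edgeR). LOX3, LOX4, OPR3 and TAT3 are positive in every block, LOX2 is negative in 5, VSP1 and VSP2 are called only in the library-7 block, and the FLC-low cell of TAT3 is a lower bound because libraries 8 and 9 had no TAT3 read.

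VSP1 (AT5G24780) and VSP2 (AT5G24770) encode vegetative storage proteins, acid phosphatases that accumulate in jasmonate-treated leaves. The genes are neighbours on the minus strand of chromosome 5 (chr5:8507590-8509201 and chr5:8500468-8502224, TAIR10.1) and their coding sequences are 90.4% identical. Their longest identical run, 54 bases, is printed because reads from it cannot be assigned to either gene. It starts at coding position 243 of VSP1 and 228 of VSP2.
VSP1 and VSP2: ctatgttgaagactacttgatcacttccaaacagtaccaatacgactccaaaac
VSP1 ran from 0.337 to 143 CPM (median 4.65) in libraries 12 to 22 and from 1.41 to 288 CPM (median 13.3) in libraries 1 to 11. VSP2 ran from 0.786 to 517 CPM (median 17.5) in libraries 12 to 22 and from 0.706 to 66.5 CPM (median 26.7) in libraries 1 to 11. In both genes the sets overlapped widely. The 4 libraries of the MAM1-high block had the 4 lowest levels of either gene, 0.337 to 2.64 CPM for VSP1 and 0.706 to 1.87 CPM for VSP2.

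Neither VSP gene passed for the set difference, at -0.48 ± 0.66 (adjusted p = 0.523) for VSP1 and -0.25 ± 0.519 (adjusted p = 0.68) for VSP2 on the log2 scale (edgeR). VSP2 passed without library 7 (-0.70, adjusted p = 0.0364) and in the 4 blocks with 2 libraries in each set (-0.79, adjusted p = 0.00436), and it was 1.39 (adjusted p = 0.151) with no block in the fit. VSP1 was -1.08 (adjusted p = 0.0549) without library 7 and 0.14 (adjusted p = 0.83) without libraries 3 and 11. In single blocks the only calls were in the library-7 block. VSP1 had 37.3 and 143 CPM in libraries 17 and 18, against 6.93 CPM in library 7, and VSP2 had 136 and 517 CPM in libraries 17 and 18, against 17.0 CPM in library 7. There the difference was 3.79 ± 0.946 for VSP1 (adjusted p = 0.00587, edgeR) and 4.30 ± 0.707 for VSP2 (adjusted p = 0.00037, edgeR). The single library 7 carries 1 side of both values, and the VSP1 call was lost without library 18 (2.42, adjusted p = 0.0533), while that of VSP2 was 3.01 without library 18 and 4.93 without library 17. The AOP3-expressing block went the other way, with 4.35 and 2.79 CPM of VSP1 in libraries 21 and 22, against 13.3 and 45.7 CPM in libraries 10 and 11, and 10.8 and 14.4 CPM of VSP2 in libraries 21 and 22, against 33.0 and 50.6 CPM in libraries 10 and 11. It just missed the threshold (-2.81 ± 1.12, adjusted p = 0.054 for VSP1 and -1.67 ± 0.665, adjusted p = 0.0553 for VSP2, edgeR). VSP1 was called there without library 1, 3, 10, 17 or 18 (-2.77 to -3.65, adjusted p of 0.021 to 0.0388), and VSP2 without library 17 or 18 (-1.66 and -1.67, adjusted p = 0.000334 and 0.000197). In the ESP-low block VSP1 was called without library 1 (-2.02, adjusted p = 0.0448), and in the FLC-low block VSP2 was called without library 17 or 18 (-0.83 both times, adjusted p = 0.0273 and 0.0221). Libraries 17 and 18 were also the pair with the highest LOX2 among libraries 12 to 22, and they differed from each other 3.83-fold in VSP1 and 3.79-fold in VSP2.

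**Figure D3:**
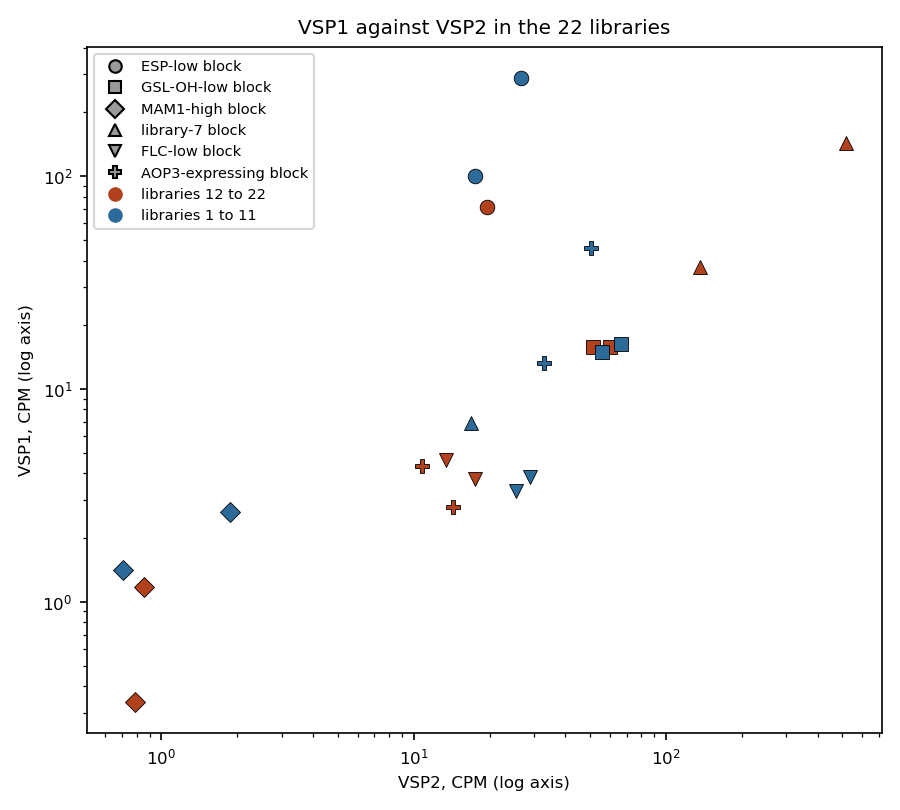
VSP1 (vertical) against VSP2 (horizontal), both in TMM-scaled CPM on log axes, in the 22 libraries, with marker shape for the genotype block and red for libraries 12 to 22, blue for libraries 1 to 11. The ESP-low libraries lie above the others of like VSP2 level, the MAM1-high libraries lie lowest, and libraries 17 and 18 of the library-7 block have the highest VSP2.

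The balance of the VSP genes, in CPM per kilobase of the longest transcript, also differed between blocks. In the ESP-low block VSP1 exceeded VSP2, at 54.5 against 13 CPM per kb in library 12, at 76 against 11.6 in library 1 and at 219 against 17.7 in library 3. In libraries 13, 14, 2 and 4 of the GSL-OH-low block VSP2 was higher, at 34.2 to 44.1 CPM per kb, while VSP1 lay at 11.2 to 12.4. Over the 22 libraries the Pearson correlation of log2 levels was 0.72 between VSP1 and VSP2 and 0.81 between VSP1 and AOS, as descriptions over libraries that share blocks and sets. The loci most like VSP2 were RIK (0.88), AT3G29280 (0.86) and AT5G27230 (0.86).

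TAT3 (AT2G24850), a tyrosine aminotransferase gene induced by jasmonate, separated the sets most. Libraries 12 to 22 ran from 159 to 980 CPM (median 308), and libraries 1 to 11 from 0 to 40.3 CPM (median 1.496). The highest of libraries 1 to 11 (library 3) lay well below the lowest of libraries 12 to 22 (library 21), and libraries 8 and 9 had no read. The log2 fold change was 5.95 ± 0.723, or 61.7-fold (adjusted p = 1.3e-06, edgeR). It was 7.05 with DESeq2, 5.23 with no block and 6.91 without libraries 3 and 11, and it was called in each. Single blocks ran from 2.84 ± 0.875 in ESP-low, where libraries 1 and 3 had 14.3 and 40.3 CPM, to 8.61 ± 1.52 in the library-7 block. In the FLC-low block libraries 19 and 20 (308 and 257 CPM) were at least 537-fold higher than the limit of 0.479 CPM set by 3 counts per library. The ESP-low call was lost without library 1 (2.44, adjusted p = 0.0616), and the value was 3.96 without library 3. Other block values also moved with 1 library. GSL-OH-low, 8.43 with all libraries, was 7.75 without library 2 and 10.07 without library 4, which left the 2 reads of library 2. MAM1-high, 5.88 with all, was 6.89 without library 5 and 5.13 without library 6. AOP3-expressing, 4.35 with all, was 2.82 without library 10 and 10.73 without library 11, which left the 1 read of library 10.

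TAT3 levels within libraries 1 to 11 were uneven. In the AOP3-expressing block library 11 (Got-7 UV 1) had 24.8 CPM and library 10 (Got-7 mock 2) 0.0897 CPM, which was 1 read. In the MAM1-high block libraries 5 and 6 had 25.3 and 7.56 CPM. Among libraries 12 to 22, libraries 15 and 16 of the same block led in TAT3, as they did in OPR3 and LOX4.

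PDF1.2a (AT5G44420), which encodes a secreted antifungal defensin, was at or near the floor in nearly all libraries. It stood at 0 to 0.995 CPM in libraries 12 to 22 and at 0 to 1.35 CPM in libraries 1 to 11, apart from 33.5 CPM (359 reads) in library 3. The fitted log2 fold change of -2.56 ± 1.15 (adjusted p = 0.0569, edgeR) rests on that library. Without library 3, or without library 10, the gene failed the filter. It was called with no block (-4.12, adjusted p = 0.00678) and without library 1 (-2.99, adjusted p = 0.00277), 7 (-3.18, adjusted p = 0.0255) or 17 (-2.97, adjusted p = 0.0293), and was -1.03 (adjusted p = 0.541) without library 12. The gene has near-identical copies, and their coding sequences are shown because they show how little separates the reads of each. Capitals mark the 22 of 243 positions at which the copies differ. PDF1.2a spans chr5:17907216-17907550 (minus strand), PDF1.2b chr2:11089281-11089597 (plus strand) and PDF1.2c chr5:17909092-17909444 (minus strand) from start to stop codon, intron included (RefSeq, TAIR10.1).
PDF1.2a: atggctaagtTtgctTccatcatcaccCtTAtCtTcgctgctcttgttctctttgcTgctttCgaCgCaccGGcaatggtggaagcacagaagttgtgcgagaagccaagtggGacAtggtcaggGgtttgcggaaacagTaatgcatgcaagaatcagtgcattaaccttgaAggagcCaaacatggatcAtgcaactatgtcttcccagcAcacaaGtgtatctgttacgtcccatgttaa
PDF1.2b: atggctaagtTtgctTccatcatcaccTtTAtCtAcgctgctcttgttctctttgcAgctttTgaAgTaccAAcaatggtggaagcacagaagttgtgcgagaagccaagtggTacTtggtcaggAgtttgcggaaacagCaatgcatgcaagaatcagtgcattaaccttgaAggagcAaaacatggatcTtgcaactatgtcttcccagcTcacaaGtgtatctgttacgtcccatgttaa
PDF1.2c: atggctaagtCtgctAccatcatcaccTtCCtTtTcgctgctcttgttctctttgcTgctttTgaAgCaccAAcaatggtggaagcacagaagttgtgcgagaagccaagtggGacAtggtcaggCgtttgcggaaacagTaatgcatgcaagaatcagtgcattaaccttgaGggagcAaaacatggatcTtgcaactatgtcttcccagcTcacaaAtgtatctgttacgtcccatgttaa
PDF1.2a was 93.8% identical to PDF1.2b and 93.4% to PDF1.2c, so the 3 counts are uncertain as to copy. PDF1.2b reached 8.41 CPM and PDF1.2c 28.9 CPM in libraries 1 to 11, and at most 1.71 and 1.88 CPM in libraries 12 to 22, and neither was called. The loci most like PDF1.2a over the 22 libraries were PDF1.2c (Pearson r = 0.93), DXPS1 (0.87) and PDF1.2b (0.83). PDF1.2a had 3 counts or fewer in 18 of the 22 libraries, and 359 of its 400 reads were in library 3. The part of library 3, and of reads shared among the copies, in these correlations was not tested.

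Of 86 ratios between 2 libraries of the same block and set that rested on over 3 reads in each, 21 exceeded 1.5-fold. These were 13 of the 17 ratios in the pair of libraries 3 and 1 or the pair of 11 and 10. In the other pairs they were 8 of 69. Library 3 (Ba-1 UV 1) exceeded library 1 (Ba-1 mock 1) in 10 of 10 members, with a median log2 ratio of 1.23, against 49.5% of all loci and a median of 0. Library 11 (Got-7 UV 1) exceeded library 10 (Got-7 mock 2) in 8 of 10, with a median of 0.58, against 48.3% of loci. The widest gap in libraries 3 and 1 among the enzymes was that of LOX4, 5.38-fold. Without libraries 3 and 11, an alternative chosen after the data were seen, the 7 called members were again called in the same direction, at -1.38 for LOX2, 2.01 for LOX3, 5.48 for LOX4, -0.54 for AOS, 1.66 for AOC1, 2.99 for OPR3 and 6.91 for TAT3 on the log2 scale. PDF1.2a then failed the filter.

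By block, 39 of the 60 contrasts of a member in a block were called. The ESP-low, GSL-OH-low and library-7 blocks had 7 of 10 members each, against 46.9%, 57.2% and 53.6% of loci, and the MAM1-high, FLC-low and AOP3-expressing blocks had 6 each, against 68.6%, 53.7% and 55.0%. The set difference itself varied between blocks in 7 members, LOX2, LOX4, AOS, AOC1, OPR3, VSP1 and VSP2 (edgeR F test across the 6 blocks, adjusted p of 0.000991 to 0.0401), against 33.5% of loci. LOX3, TAT3 and PDF1.2a did not pass this test (adjusted p of 0.232, 0.104 and 0.857, edgeR). Across the 22 libraries LOX4 went with OPR3 (r = 0.96), LOX3 (0.93) and TAT3 (0.92). LOX2 went with AOS (0.77) and against LOX4 (-0.52). These correlations describe libraries that share blocks and sets, and the set difference enters each of them. The loci outside the members closest to their mean profile were SLP1 (r = 0.85), PAA1 (0.84), AT5G19110 (0.83), JOX4 (0.81) and JAZ9 (0.81).

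The genotype loci did not follow the labelled accessions, so the UV and mock labels may not sit on the libraries they belong to either. That was not tested, and each value for UV holds for the labels as they stand. By these labels, no member was called for UV over mock as the mean of the 6 accessions, and neither was any of the 18149 loci tested (0%, with 504 at an unadjusted p under 0.05, edgeR). DESeq2 called 2 loci, neither of them a member. TAT3 ran from 0 to 980 CPM (median 159) in libraries labelled UV and from 0 to 816 CPM (median 25.3) in libraries labelled mock, and LOX4 from 1.77 to 272 CPM (median 49.5) in UV and from 1.76 to 252 CPM (median 6.06) in mock. Both labels spanned nearly the whole range of these genes. The gap between the medians reflects how the labels fell on the sets, with 6 UV and 5 mock libraries among libraries 12 to 22. The UV medians were the lowest values of libraries 12 to 22 (library 21 for TAT3 and library 22 for LOX4). The mock medians were the highest mock values of libraries 1 to 11 (library 5 for both genes). These medians are therefore not a measure of a UV effect. The labelled UV effect was 0.92 ± 0.763 for TAT3, 0.03 ± 0.361 for LOX4, 0.06 ± 0.217 for OPR3 and -0.03 ± 0.271 for LOX3 on the log2 scale. It was 0.37 ± 0.397 for LOX2, 0.34 ± 0.296 for AOS, -0.003 ± 0.589 for AOC1, 0.80 ± 0.855 for VSP1 and 1.00 ± 0.83 for VSP2. For PDF1.2a, near the floor, the fit gave 0.11 with no usable error (443). The other errors ran from 0.217 for OPR3 to 0.855 for VSP1. The biological coefficient of variation was 26.7% in the fit by labels and 13.2% in the fit of sets and blocks. These values do not show that UV left the genes as they were.

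The other genes of the pathway, in lists chosen with earlier results of these data known, showed where the members sit. Of 15 other synthesis enzymes, 14 were tested, with 5 called higher and 9 lower in libraries 12 to 22, against 37.7% and 38.5% of all loci (median log2 fold change -0.24, against -0.01 over all loci). AOC3, the other close copy of AOC1, rose most, to 98.4 to 335 CPM in libraries 12 to 22 against 0.145 to 11.7 CPM in libraries 1 to 11 (5.82 ± 0.305 on the log2 scale, adjusted p = 2.48e-11, edgeR). ACX1, an acyl-CoA oxidase of the beta-oxidation step, stood at 251 to 1018 CPM against 46.8 to 99.1 CPM in libraries 1 to 11 (2.70 ± 0.191). FAD8, a plastid fatty acid desaturase upstream of the lipoxygenases, was lower, at 47.7 to 97.4 CPM against 70.5 to 140 CPM in libraries 1 to 11 (-0.62 ± 0.0524). The lipase gene DGL was called with 71 reads in all, at 0.101 to 1.80 CPM in libraries 12 to 22 and no read in libraries 1 to 11.

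Of 11 genes of jasmonate turnover 9 were tested, and 8 were called higher and 0 lower in libraries 12 to 22, against 37.7% and 38.5% of all loci (median log2 fold change 3.01). Without the block in the fit 5 were called higher. IAR3, an amidohydrolase that cleaves jasmonoyl-isoleucine, stood at 299 to 1262 CPM against 18.4 to 129 CPM in libraries 1 to 11 (4.46 ± 0.296). ILL6, of the same family, had 31.1 to 138 CPM against 4.84 to 30.6 CPM in libraries 1 to 11 (2.50 ± 0.308), and CYP94C1, which oxidises the conjugate, had 1.14 to 25.1 CPM against 0.291 to 2.39 CPM in libraries 1 to 11 (3.43 ± 0.334). Of 12 JAZ repressors listed, which are themselves early jasmonate-responsive genes, 11 were in the count table and 10 were tested. Of these 10, 8 were called higher and 1, JAZ3, lower, against the same 37.7% and 38.5% (median 1.77). JAZ1 stood at 151 to 893 CPM against 6.79 to 46.3 CPM in libraries 1 to 11 (4.60 ± 0.387), and JAZ5 at 13.2 to 132 CPM against 0.160 to 5.98 CPM in libraries 1 to 11 (5.09 ± 0.352). JAZ7 was also called but stayed at 0 to 3.13 CPM in libraries 12 to 22 and 0 to 0.374 CPM in libraries 1 to 11. JAZ3 was not called lower with limma's voom, without the block or without libraries 3 and 11 together.

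**Figure D4:**
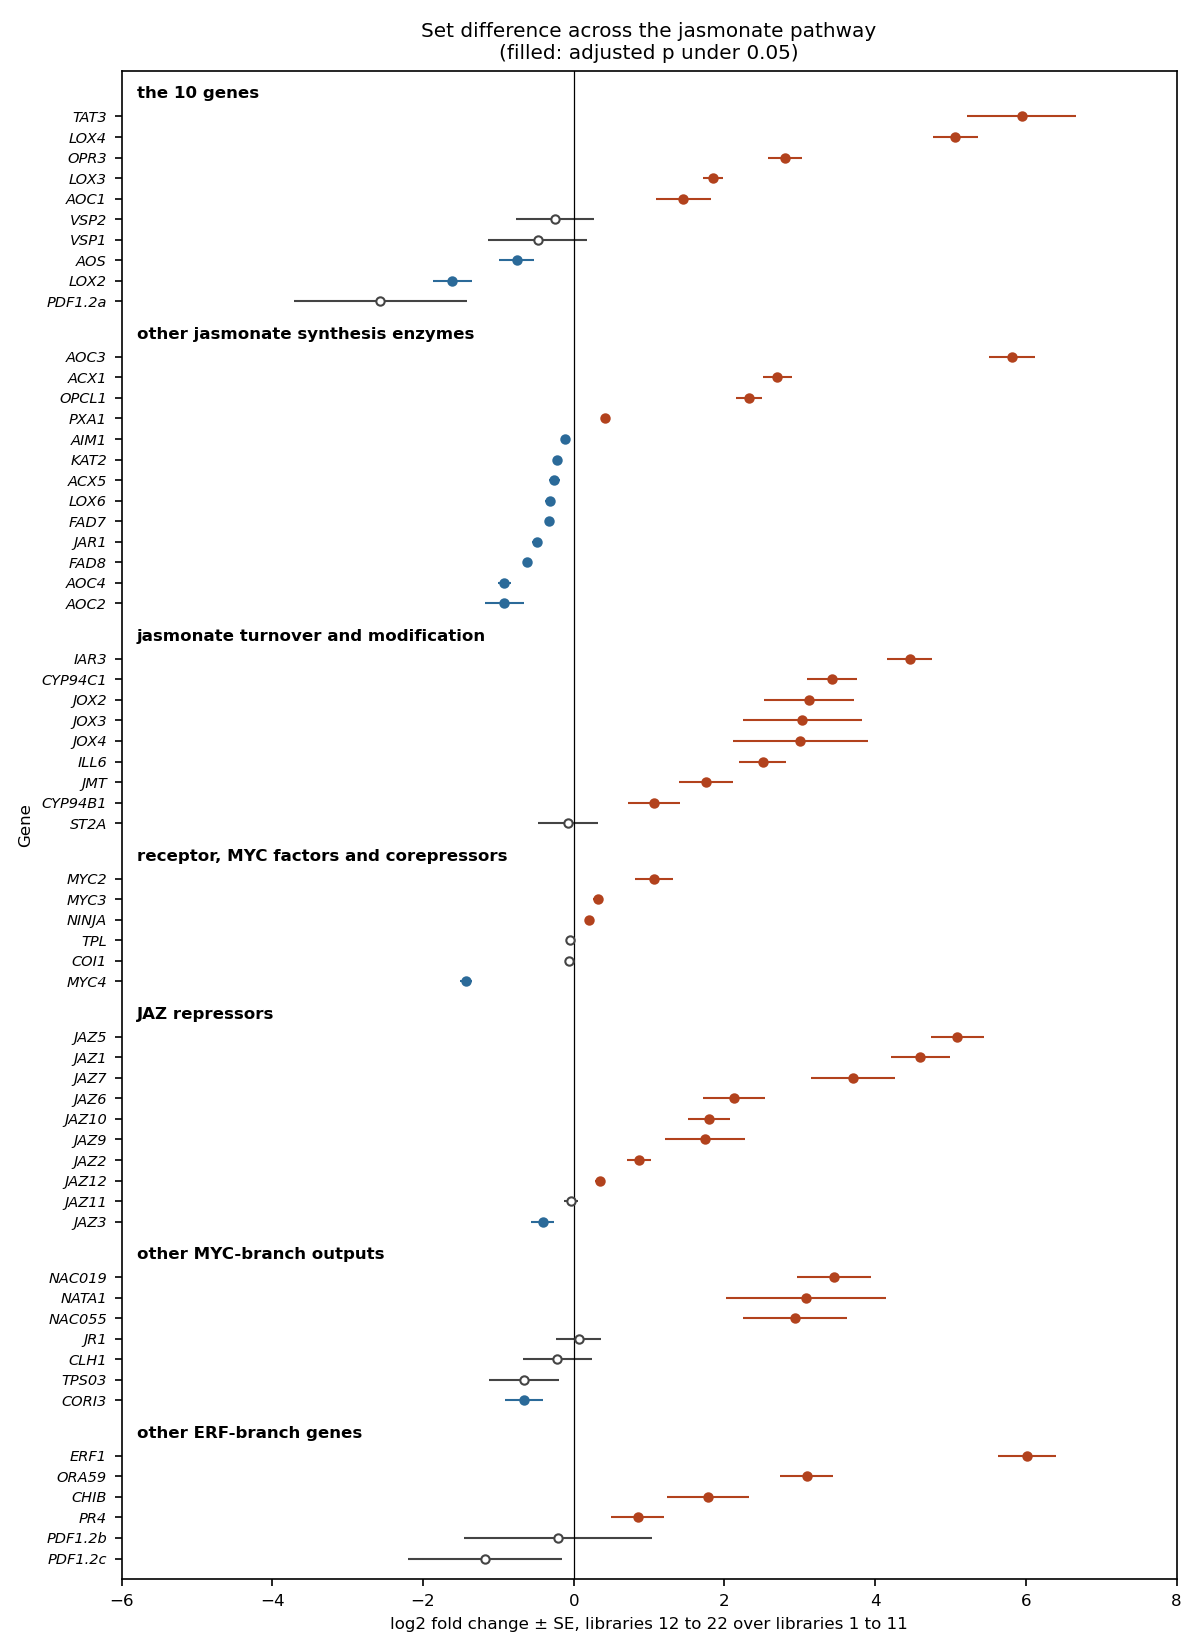
Log2 fold change of libraries 12 to 22 over libraries 1 to 11, with its approximate standard error. Shown are the 10 genes and the other tested genes of 6 pathway lists. DGL, without a read in libraries 1 to 11, is left out. Filled points passed an adjusted p under 0.05 (edgeR), red higher and blue lower in libraries 12 to 22, and turnover and JAZ genes lie mostly to the right.

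Of 6 genes of the receptor, the MYC factors and their corepressors, 3 were called higher and 1 lower, against 37.7% and 38.5% of all loci (median 0.07), and COI1 and the corepressor TPL did not pass. MYC2, the main activator of the MYC branch, had 44.2 to 134 CPM in libraries 12 to 22 and 28.4 to 95.0 CPM in libraries 1 to 11 (1.06 ± 0.254). MYC3 was also higher (0.32 ± 0.066), whereas MYC4 was lower without overlap, at 5.77 to 8.88 CPM against 14.9 to 23.4 CPM in libraries 1 to 11 (-1.43 ± 0.0801, adjusted p = 1.14e-12, edgeR). Of 9 further outputs of the MYC branch 7 were tested, 3 higher and 1 lower, against the same shares (median 0.06): the transcription factor genes NAC019 (3.45 ± 0.492) and NAC055 (2.94 ± 0.693) and the acetyltransferase gene NATA1 (3.08 ± 1.06) rose, and CORI3 fell, a call lost with no block and without library 12, 21 or 22. Of 8 other genes of the ERF branch 6 were tested, 4 higher and 0 lower, against 37.7% and 38.5% of all loci (median 1.31). ERF1 had 4.86 to 88.6 CPM in libraries 12 to 22 and 0 to 1.78 CPM in libraries 1 to 11 (6.01 ± 0.389, adjusted p = 1.3e-10, edgeR), ORA59 2.94 to 20.2 CPM against 0 to 6.07 CPM in libraries 1 to 11 (3.09 ± 0.353), and the chitinase gene CHIB 0.942 to 25.5 CPM against 0 to 3.64 CPM in libraries 1 to 11 (1.78 ± 0.547). ERF1 and ORA59, the activators of this branch, thus passed the test and PDF1.2a did not.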

How the data were processed

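RNA from whole seedlings was sequenced in 22 libraries. The authors deposited raw counts, as whole numbers for each locus. The submitters' processing notes list TopHat, FastQC and 2 builds (TAIR10 and TAIR9). Not given in the sources used here are the counting program, its annotation and its use of strand. Without knowledge of strand, overlapping genes cannot be told apart. All columns were matched to samples by number, and 0 per-sample columns were left unused. Total counts per library ran from 3539510 to 20903894.

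Counts were fitted in R 4.3.3 with edgeR 4.0.16 (TMM factors, robust quasi-likelihood F test) over the 18149 loci that reached 1 CPM in 2 or more libraries, with Benjamini-Hochberg adjustment over all of these. The set difference had the 6 blocks as a covariate, the blocks were compared in a fit of 12 block-by-set means, in which a cell of 1 library shares the spread of the others, and labelled UV was compared with mock in a fit of 12 labelled groups. Errors are approximate standard errors, computed as the absolute log2 fold change over the square root of the F statistic. Where a p is given without a tool it is edgeR's adjusted p. Limma 3.58.1 (voom) and DESeq2 1.42.0 served as alternatives, beside other scaling, filters and blocks and the omission of each library. The fit of the set difference, and no other fit, was run on simulated data. Of 18149 simulated loci, 107 were changed by 1 and 93 by 2 on the log2 scale. The fit recovered 93.5% and 98.9% of these, and it called 11 unchanged loci. In the data 76.2% of loci were called, so the simulation does not check scaling or error control where so many loci differ. Correlations used log2 CPM with a prior count of 2. Coding sequences were aligned with Biopython 1.88.

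The members, blocks and lists were chosen with earlier results of these data known. The text names all members, up to 3 genes of a list with the smallest p for the set difference, the loci most like the members, VSP2 and PDF1.2a, and, after their values were seen, AOC2, DGL, JAZ3, CORI3, COI1, TPL, PDF1.2b and PDF1.2c.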

Additional observations from a re-analysis of the deposited data

Results flagged for a closer look

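The set difference, libraries 12 to 22 over libraries 1 to 11, varied between the 6 genotype blocks in 7 of the 10 genes by an F test of that variation itself (edgeR, adjusted over all loci), which passed for 33.5% of all loci. AOC1 had an adjusted p of 0.000991 and OPR3 of 0.00645, and both passed in each of 26 alternatives, which included leaving out each library in turn. For AOC1 the FLC-low block (log2 fold change 4.22) and the AOP3-expressing block (-0.43) lay farthest apart, and for OPR3 the MAM1-high (3.74) and AOP3-expressing (1.64) blocks.

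VSP2 had an adjusted p of 0.00876, which rose to 0.623 without library 7, the only library of its set in its block. VSP1, at 0.039, did not pass in 17 of 26 alternatives and stood at 0.504 without library 7. LOX2, at 0.0237, was lost without library 7 (0.0935), 15 (0.052), 21 (0.051) or 22 (0.0501). AOS, at 0.0226, was lost without library 6 (0.055), 11 (0.054), 15 (0.052), 21 (0.0544) or 22 (0.0805). LOX4, at 0.0401, did not pass in 18 of 26 alternatives, with an adjusted p of up to 0.306. LOX3, which did not pass, did so without library 1 or 3, and PDF1.2a without library 1. TAT3 did so without library 10 or 11 and with limma's voom (0.0278). Each of these omissions leaves 1 library in a cell of block and set. Without library 1 the ESP-low value of PDF1.2a was -5.07, against -4.29 with it, and rests on library 3 alone in libraries 1 to 11.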

How the results depend on the processing

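The set difference was called at 13834 loci, and at 13544 to 13772 with 1 library left out. The 7 called members remained called in the same direction under every alternative in which they were tested, and 7 to 9 members were called with 1 library left out. The 39 member-by-block calls became 32 to 42, and the 6083 loci that varied between blocks became 4594 to 6850, with the fewest without library 6 and the most without library 1. The 0 loci called for labelled UV became 2 with DESeq2 and 0 to 7 with 1 library left out (7 without library 10, 1 without library 15). Same-numbered libraries of an accession did not all deviate together (correlations of 0.597, -0.000713, -0.336 and -0.281 in Ba-1, C24, Lip-0 and Mh-0), so the numbers were not taken as pairs, and with the replicate number as a block the labelled UV calls became 2. Among 2921 other values, 63 lost a call, 24 gained one, 16 moved and 0 reversed. A change of sign counted as reversed only where at least 1 of the values compared was called. Uncalled values did change sign. The set difference of VSP2, -0.25 as reported, was 0.71 with limma's voom and 1.39 with no block. That of VSP1, -0.48 as reported, was 0.305 with voom. The cause of these changes was not tested.

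The labelled accession cannot be told apart from the numbering, the blocks were set from the data, and 2 of the 12 cells of block and set hold 1 library. PDF1.2a lies at the depth limit in most libraries, and TAT3 does in libraries 2, 8, 9 and 10, where folds depend on single reads. The counting of near-identical copies was not given, which limits VSP1, VSP2, AOC1 and the PDF1.2 genes.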
